A study of Mus musculus with 6 samples.

Results

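The replication-dependent histone genes were described in splenic CD8+ T cells of the mouse that had been activated and then given 2 µM blebbistatin for 24 h (3 libraries) or vehicle (3 libraries). Blebbistatin blocks myosin II, which pulls on actin filaments, and the series asked what such a cytoskeletal drug does to these T cells. The labels name no genotype, strain or age, and the composition of the vehicle is not stated. Nothing in them ties a replicate to its own mouse or culture, so the p-values reflect spread among libraries that may be only technical. Members were the genes whose symbol named a clustered H1, H2A, H2B, H3 or H4 gene in the Hist1 to Hist4 nomenclature. The rule found 70 of the 47729 genes listed, under 69 symbols because Hist2h2bb had 2 identifiers: 6 H1, 20 H2A, 19 H2B, 12 H3 and 13 H4 genes. In the GENCODE annotation of GRCm38, 56 lie on chromosome 13, 11 on chromosome 3, 2 on chromosome 11 and 1 on chromosome 6. Of the 70, 67 are protein coding and 64 have a single exon.

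H2A, H2B, H3 and H4 form the core of the nucleosome, around which DNA is wound, and H1 binds the linker DNA between nucleosomes. Cells transcribe these genes mainly in S phase, when new DNA must be packaged. Their messenger RNAs usually have no poly(A) tail: they end just after a conserved stem-loop, which stem-loop binding protein holds during processing, export and translation. Some of the genes can also give polyadenylated transcripts from a site further downstream, as has been described in cells that leave the cycle. The library kit named in the labels selects polyadenylated RNA, so the levels are those of the histone RNA that this selection let through. The kit does not mark strand either.

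The stem-loop was searched for in annotated 3′ UTRs, as 6 bases, a loop of 4 bases and the 6 bases that pair with the first. It was found in 46 of the 70 genes, at a median of 31 bases after the stop codon (21 to 58). Of the genes without a match, 15 had under 25 bases of annotated 3′ UTR. One gene per type, the member of highest mean level, is shown with 5 bases on either side and the stem-loop in capitals, as DNA of the coding strand, because the signal is what the members share beyond their coding sequence.
Hist1h1c: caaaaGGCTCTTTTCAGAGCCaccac
Hist1h2ae: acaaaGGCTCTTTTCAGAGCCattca
Hist1h2bj: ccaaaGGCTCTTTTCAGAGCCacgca
Hist1h3c: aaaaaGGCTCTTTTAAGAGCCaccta
Hist1h4i: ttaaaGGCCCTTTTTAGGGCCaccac
On chromosome 13 of GRCm38 the capital letters are at chr13:23739512-23739527 (Hist1h1c, plus strand), chr13:23570668-23570683 (Hist1h2ae, minus), chr13:22043638-22043653 (Hist1h2bj, plus), chr13:23745047-23745062 (Hist1h3c, minus) and chr13:22040966-22040981 (Hist1h4i, minus). The form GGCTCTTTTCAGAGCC was the commonest, in 3 H1, 10 H2A, 8 H2B and 5 H3 genes. H4 genes had other stems, with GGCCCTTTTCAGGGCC in 7 of them.

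Library facts that bear on the results come first. Implied depth ran from 19482272 to 19849612 fragments in blebbistatin libraries and from 18466219 to 19929460 in vehicle libraries. Vehicle 3 stood apart in RNAs that have no poly(A) tail, a list of 6 chosen after the data were seen. Their TPM summed to 21.4, 32.4 and 26.3 in blebbistatin libraries, against 47.0, 36.4 and 478.3 in vehicle libraries. These sums did not overlap between the groups. Within each group the order of libraries was the same as for the summed histone TPM given below. The part of such RNA in the histone values was not tested. Mitochondrial transcripts took 9.14%, 7.21% and 7.33% of TPM in blebbistatin libraries, against 6.89%, 6.58% and 6.87% in vehicle libraries. Against the labelled cell type, 5 T cell markers summed to 2116 to 2305 TPM with blebbistatin and 2075 to 2099 with vehicle, and 3 CD4 T cell markers to 1.45 to 2.55 and 2.05 to 2.19. Of 7 platelet markers, 6 were tested and 5 were called higher with blebbistatin (limma adjusted p under 0.05, by the fit given below), against 1.40% of all tested genes. The platelet list summed to 133 to 149 TPM with blebbistatin and 58.8 to 67.6 with vehicle. The 5 B cell markers summed to 30.3 to 35.3 TPM with blebbistatin and 20.8 to 22.1 with vehicle; of 2 tested, Igkc was called higher. The myeloid markers summed to 10.3 to 11 TPM with blebbistatin and 6.18 to 8.06 with vehicle, with 1 tested (Cd68) and 0 called. The 6 erythroid markers summed to 5.48 to 5.88 TPM with blebbistatin and 5.02 to 6.61 with vehicle, with 2 tested and 0 called. Their part in the histone values was not tested.

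Histone messenger RNA was lower in blebbistatin libraries 1 and 3, while blebbistatin 2 lay close to vehicle. The TPM (a transcript level corrected for length and scaled to the same total in each library) of all 70 genes summed to 84.5, 258.5 and 156.7 in blebbistatin libraries 1, 2 and 3, against 274.6, 258.1 and 352.9 in vehicle libraries 1, 2 and 3. Blebbistatin 2 fell inside the vehicle range and the other blebbistatin libraries below it, so the groups overlapped. The group means were 167 ± 87.4 with blebbistatin and 295 ± 50.7 with vehicle (SD, n = 3 each), a ratio of 0.564. The order was shared by many members: blebbistatin 1 was the lowest of the blebbistatin libraries and blebbistatin 2 the highest in 35 of 47 tested members, against 23.2% of all tested genes. In bulk RNA, fewer cells in S phase and less histone RNA per cell cannot be told apart.

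The types differed in how far the sums lay apart. H2A genes summed to 10.5, 73.3 and 27.3 TPM in blebbistatin libraries, against 77.7, 74.2 and 92.5 in vehicle libraries. H3 genes summed to 5.85, 47.2 and 26.9 TPM with blebbistatin, against 61.2, 50.3 and 70.7 with vehicle. In both of these types all 3 blebbistatin libraries lay below all vehicle libraries, blebbistatin 2 only just. H4 genes summed to 32.5, 77.8 and 51.5 TPM with blebbistatin, against 73.2, 79.0 and 114.9 with vehicle, and overlapped. H2B genes summed to 26.5, 46.5 and 37.8 TPM with blebbistatin, against 45.5, 40.1 and 58.1 with vehicle, and also overlapped. H1 genes summed to 9.29, 13.7 and 13.1 TPM with blebbistatin, against 17.0, 14.5 and 16.9 with vehicle, with no overlap. The ratios of group means were 0.439 for H3, 0.455 for H2A, 0.606 for H4, 0.747 for H1 and 0.771 for H2B.

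The make-up of the histone RNA therefore varied between libraries. H2A genes gave 12.4%, 28.4% and 17.4% of the summed histone TPM in blebbistatin libraries, against 28.3%, 28.8% and 26.2% in vehicle libraries. H2B genes gave 31.3%, 18.0% and 24.1% with blebbistatin, against 16.6%, 15.5% and 16.4% with vehicle. The H2B share was thus higher in each blebbistatin library than in any vehicle library, while the H2A share of blebbistatin 2 lay inside the vehicle range.

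**Figure D1:**
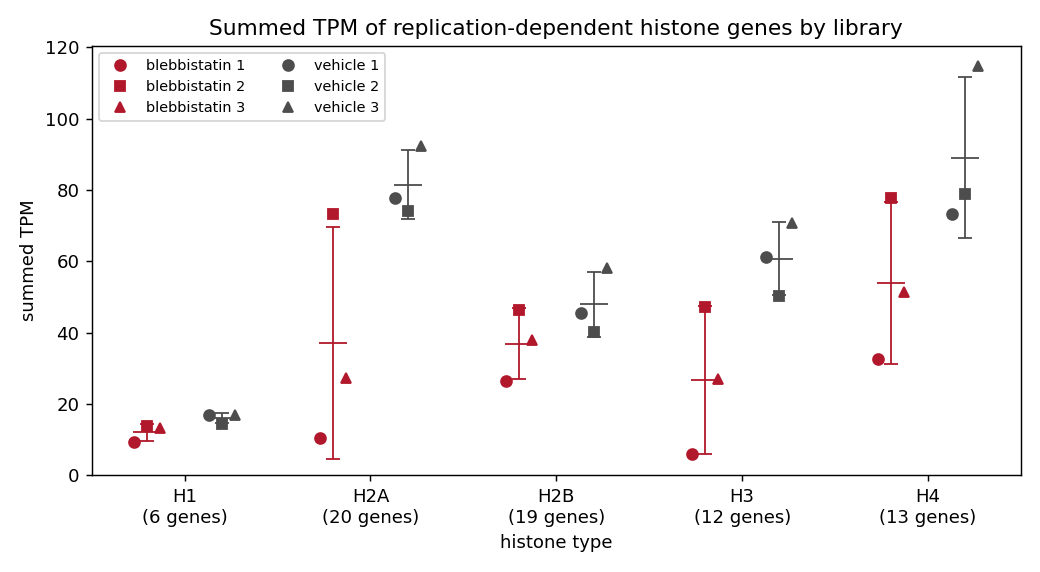
Summed TPM of the members of each histone type (vertical axis, linear from 0) in each library, blebbistatin in red on the left and vehicle in grey on the right, with a symbol per replicate number and the group mean ± SD (n = 3). Blebbistatin 1 is the lowest library in every type, and blebbistatin 2 reaches 73.3 TPM for H2A where blebbistatin 1 holds 10.5.

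Members were tested with limma on log2(TPM + 1) together with every gene whose mean over the 6 libraries was at least 1 TPM, 13372 genes in all, and p-values were adjusted by the Benjamini-Hochberg method over all of them. Of the 70 members 47 were tested. None passed an adjusted p of 0.05 in either direction, against 0.426% of all tested genes called lower and 1.40% called higher. The lowest adjusted p by limma was 0.0805, for Hist1h2af, and the next 0.0856, for Hist1h4b. Before adjustment, limma gave a p under 0.05 to 20 members, all of them lower with blebbistatin (42.6%), while 9.99% of all tested genes were lower and 12.9% higher at that level. The log2 fold change was below 0 in 44 of 47 members, against 44.9% of all tested genes. In 17 members the 3 blebbistatin libraries lay below the 3 vehicle libraries without overlap, against 13.0% of all tested genes, and in 0 tested members above, against 18.0%.

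The median log2 fold change over the 47 members was -0.73, against 0.03 over all tested genes. The median standard error was 0.34. By type the median was -0.92 for H3 (9 tested), -0.92 for H2A (14), -0.61 for H4 (10), -0.51 for H2B (10) and -0.30 for H1 (4). These sizes depend on the pseudocount: with 0.1 and with 5 in place of 1 the medians were -1.68 and -0.40 for H2A, -1.41 and -0.38 for H3, -0.76 and -0.37 for H4, -0.61 and -0.24 for H2B, and -0.48 and -0.14 for H1. With a pseudocount of 5, H2A, H3 and H4 thus lay close together. Relative to the vehicle mean, the median member differed on the log2 scale by -1.19 in blebbistatin 1, -0.25 in blebbistatin 2 and -0.71 in blebbistatin 3, and by -0.05, -0.14 and 0.23 in the vehicle libraries. Blebbistatin 1 was below the lowest vehicle library in 42 of 47 members (all tested genes: 32.3%), blebbistatin 3 in 35 (30.5%) and blebbistatin 2 in 22 (28.8%). For the median over all tested members, the spread within the blebbistatin group exceeded that within the vehicle group. This did not hold for H4 and H2B. The H4 medians were -0.92, -0.17 and -0.81 with blebbistatin, against -0.23, -0.19 and 0.68 with vehicle. The H2B medians were -0.63, -0.27 and -0.32 with blebbistatin, against -0.04, -0.27 and 0.36 with vehicle.

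**Figure D2:**
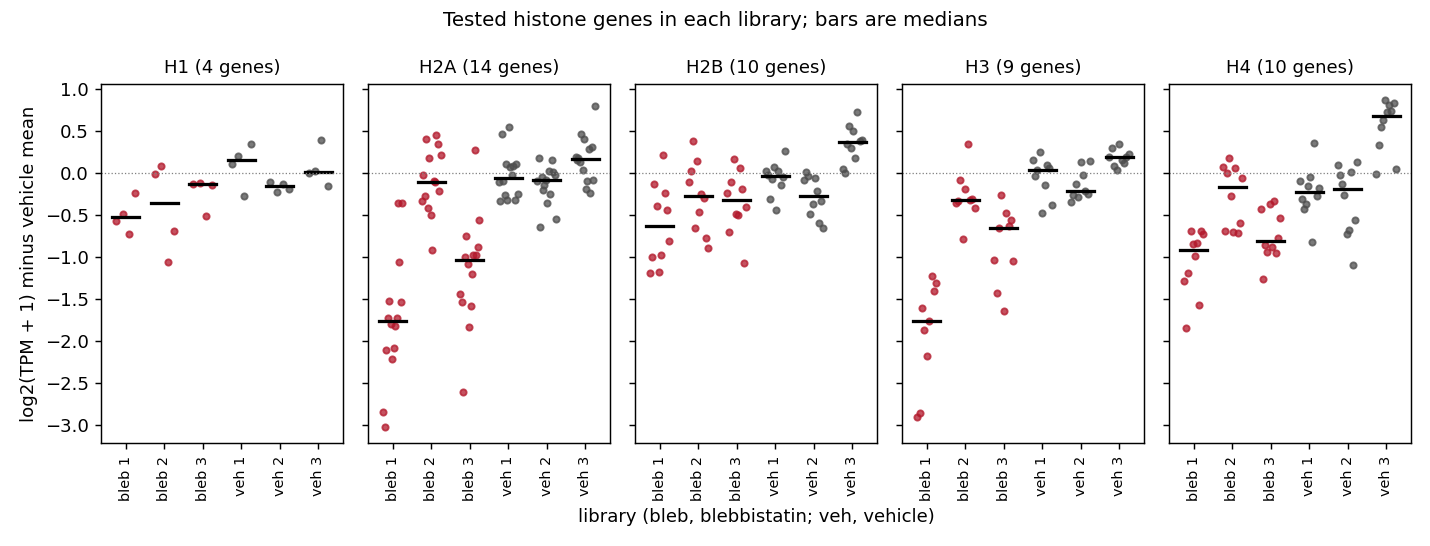
Difference of each tested member from its own vehicle mean on the log2(TPM + 1) scale (vertical axis) in each of the 6 libraries (horizontal axis), a panel per histone type, with black bars at the medians. H2A and H3 members sit lowest in blebbistatin 1 (medians -1.76 and -1.76), while those of blebbistatin 2 are at -0.10 and -0.32.

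Among H2A genes, whose product pairs with H2B in the nucleosome core, 13 of 14 tested members had a negative log2 fold change. Hist1h2ae, the H2A gene of highest mean level, had 1.75, 14.6 and 6.22 TPM in blebbistatin libraries, against 17.3, 17.5 and 21.5 TPM in vehicle libraries. All blebbistatin libraries were below all vehicle libraries, blebbistatin 1 by far the most. Its log2 fold change was -1.54 ± 0.55 (SE; limma adjusted p = 0.170). Hist1h2ag had 1.16, 16.4 and 5.04 TPM with blebbistatin, against 13.0, 19.0 and 18.5 TPM with vehicle. Here blebbistatin 2 lay among the vehicle libraries (-1.53 ± 0.66, adjusted p = 0.225 by limma). Hist1h2ai had 0.909, 5.82 and 0.352 TPM with blebbistatin, against 10.4, 4.26 and 8.32 TPM with vehicle. It had the lowest fold change of the 47 (-1.66 ± 0.59, limma adjusted p = 0.170) although blebbistatin 2 exceeded vehicle 2. Hist1h2af had 0.120, 1.51 and 0.576 TPM with blebbistatin, against 5.94, 2.68 and 3.15 TPM with vehicle, and did not overlap between groups (-1.53 ± 0.35). Its blebbistatin values rest on an implied 0.436, 5.67 and 2.12 fragments, and 58.4% of its 150-base windows also occur in other genes.

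Hist3h2a, on chromosome 11, was the H2A exception. It had 1.28, 3.01 and 2.56 TPM with blebbistatin, against 2.11, 2.27 and 1.48 TPM with vehicle. The groups overlapped, and the log2 fold change was 0.12 ± 0.23 (limma adjusted p = 0.782); it was -0.04 without blebbistatin 2. Single H2A genes are uncertain, since 65.5% of the 150-base windows of Hist1h2ag, 86.1% of those of Hist1h2ai and 24.5% of those of Hist1h2ae also occur in other genes, nearly all of them H2A genes. Every one of the 20 H2A genes is also overlapped over at least 25% of its length by other annotated genes, most of them on the opposite strand, and Hist3h2a also by Trim17 on its own strand. Reads of a gene and an overlapping one on the other strand cannot be told apart with this kit.

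H3 genes encode the core histone whose tail carries many of the best known chromatin marks. All 9 tested H3 members had a negative log2 fold change, between -1.54 and -0.63. Hist1h3c, the H3 gene of highest mean level, had 2.57, 19.8 and 12.0 TPM in blebbistatin libraries, against 28.6, 20.0 and 29.4 TPM in vehicle libraries. Blebbistatin 2 was just below vehicle 2, so the groups did not overlap (-1.43 ± 0.59, limma adjusted p = 0.205). Hist1h3h had 0.527, 7.81 and 3.12 TPM with blebbistatin, against 9.80, 8.24 and 12.6 TPM with vehicle, again without overlap (-1.54 ± 0.57, limma adjusted p = 0.178). Hist1h3a had 0.923, 4.53 and 2.71 TPM with blebbistatin, against 5.03, 4.36 and 5.23 TPM with vehicle. Hist1h3e had 0.131, 3.88 and 1.75 TPM with blebbistatin, against 2.49, 2.78 and 3.28 TPM with vehicle. In both of these genes blebbistatin 1 was far below every other library and blebbistatin 2 reached or passed vehicle levels. Hist1h3c shares 15.6% of its windows with other genes, and Hist1h3h 90.5%.

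H4, the partner of H3, had 10 tested members, all with a negative log2 fold change. Hist1h4i had the highest level of any member, with 15.1, 40.3 and 28.2 TPM in blebbistatin libraries, against 35.8, 41.1 and 38.0 TPM in vehicle libraries. Blebbistatin 2 lay inside the vehicle range and the others below it (-0.55 ± 0.30, limma adjusted p = 0.321). This gene shares only 2.08% of its windows with other genes. Hist1h4b had 2.44, 6.65 and 4.15 TPM with blebbistatin, against 8.92, 11.2 and 14.5 TPM with vehicle. Its groups were well separated, blebbistatin 2 included (-1.26 ± 0.30, limma adjusted p = 0.0856). However, Hist1h4b shares 63.3% of its windows with other genes, Hist1h4k 53.4% and Hist1h4n 77.2%. A gene on the opposite strand also overlaps 56.2% of the listed length of Hist1h4b, and this kit does not separate their reads. Hist1h4k had 2.90, 7.89 and 3.92 TPM with blebbistatin, against 5.63, 7.13 and 12.0 TPM with vehicle. Hist1h4n had 1.27, 3.20 and 2.21 TPM with blebbistatin, against 1.28, 3.08 and 6.06 TPM with vehicle. Vehicle 3 was the highest library in both, and the log2 fold change of Hist1h4n turned to 0.04 without it. The H4 members were high in vehicle 3 as a group (median 0.68 above the vehicle mean on the log2 scale), the library that also stood out in RNAs without a poly(A) tail.

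H2B members, which encode the partner of H2A, lay nearer to vehicle. Hist1h2bj had 4.29, 10.2 and 9.23 TPM in blebbistatin libraries, against 11.3, 10.5 and 11.5 TPM in vehicle libraries. All blebbistatin libraries were below the vehicle ones, with a wide gap only for blebbistatin 1 (-0.51 ± 0.27, limma adjusted p = 0.291). Hist1h2bk had 4.31, 9.81 and 5.50 TPM with blebbistatin, against 9.48, 9.74 and 9.62 TPM with vehicle, and blebbistatin 2 was above all vehicle libraries (-0.56 ± 0.24, limma adjusted p = 0.222). Hist1h2bb had 1.11, 0.676 and 0.363 TPM with blebbistatin, against 1.76, 1.28 and 2.74 TPM with vehicle, and here it was blebbistatin 3 that was lowest (-0.76 ± 0.24). Its blebbistatin values rest on an implied 4.59, 2.89 and 1.51 fragments, so this order is not resolved at this depth. Hist1h2bc had 6.05, 9.01 and 6.16 TPM with blebbistatin, against 5.21, 6.51 and 8.76 TPM with vehicle. Its groups overlapped throughout (0.05 ± 0.20, limma adjusted p = 0.904), and the sign turned negative under quantile scaling and under the length and GC correction. The H2B median was -0.01 without vehicle 3 and -0.24 without blebbistatin 1, so it rests on these libraries.

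H1 members, the linker histones, showed the smallest median. Hist1h1c had 6.55, 10.1 and 9.27 TPM in blebbistatin libraries, against 11.1, 9.37 and 10.2 TPM in vehicle libraries. The groups overlapped (-0.23 ± 0.16, limma adjusted p = 0.395). Hist1h1e had 0.924, 1.85 and 1.49 TPM with blebbistatin, against 2.11, 1.3 and 1.74 TPM with vehicle, and overlapped as well. Hist1h1a had 0.667, 0.324 and 0.929 TPM with blebbistatin, against 1.29, 1.53 and 2.64 TPM with vehicle, without overlap (-0.77 ± 0.23, limma adjusted p = 0.130). In Hist1h1a blebbistatin 2 was the lowest library, unlike in most H2A, H3 and H4 members; its value rests on an implied 1.96 fragments, so the order is not resolved at this depth.

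**Figure D3:**
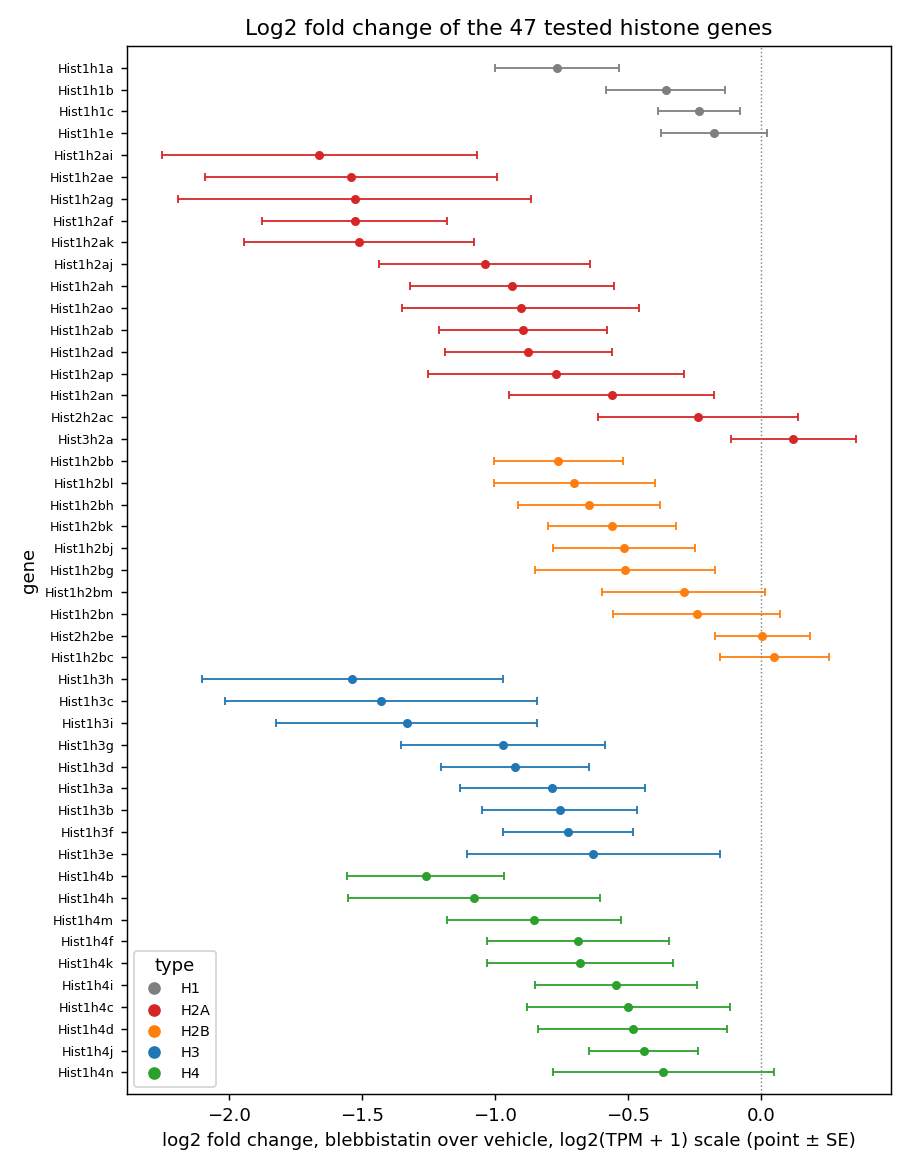
Log2 fold change of blebbistatin over vehicle on the log2(TPM + 1) scale (horizontal axis, point ± SE) for the 47 tested members, grouped and coloured by histone type. Points run from -1.66 (Hist1h2ai) to 0.12 (Hist3h2a), and 44 lie left of 0.

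Leaving out blebbistatin 2, the library nearest to vehicle, changed the calls. With the other 5 libraries, limma called 16 of 46 tested members lower and 0 higher at an adjusted p of 0.05, against 4.46% and 3.73% of all tested genes. They were 11 of 13 H2A, 3 of 9 H3, 1 of 10 H2B and 1 of 10 H4 members, and 0 of 4 H1 members. The lowest adjusted p by limma was 0.0173, for Hist1h2ak, with a log2 fold change of -2.02 ± 0.25. Its values in blebbistatin 1 and 3 rest on an implied 0.937 and 2.32 fragments. Hist1h2ae then had -2.14 ± 0.38, Hist1h3h -2.14 ± 0.41, Hist1h4b -1.55 ± 0.24 and Hist1h2bk -0.85 ± 0.12. The labels give no ground for leaving this library out. Leaving out any other library gave 0 called members. Without vehicle 3, 38 of 45 members had a negative log2 fold change, and 4 were lower at a limma p under 0.05 before adjustment. In the fit of all 6 libraries, 44.9% of all tested genes were below 0 and 9.99% were lower at that level. These shares are not given here for the fit without vehicle 3, so the 4 are not read as a result about the members.

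GC content moved with the result, while length did so clearly only among the members. The tested members had a median annotated transcript length of 508 bases and a median GC content of 59.4%, against 2916 bases and 49.4% in the other tested genes. Both were taken from the longest annotated transcript. In some members this is longer than the listed gene, as in Hist1h4d (1138 against 393 bases). The correlations and the correction below rest on the annotated transcripts. By type the median GC content over all members, untested ones included, was 64.3% for H2A, 59.9% for H3, 56.2% for H4, 55.4% for H2B and 53.1% for H1. The medians of the log2 fold change, which cover tested members only, ran in nearly the same order. Across the 45 tested members with a value, the log2 fold change correlated with GC content at a Pearson r of -0.60 (Spearman rho -0.58), and across 13272 other genes at r = -0.36 (rho -0.39). With transcript length, Spearman rho was 0.46 across the members and 0.13 across the other genes. These are correlations across genes of the same 6 libraries, and genes are not independent replicates. The 2057 other genes with transcripts of up to 1000 bases had a median log2 fold change of 0.02, against 0.03 in all other tested genes. Other genes with transcripts of up to 1000 bases and at least 60% GC, 116 in all, had a median log2 difference from the vehicle mean of -0.67 in blebbistatin 1, -0.06 in blebbistatin 2 and -0.36 in blebbistatin 3. Such genes thus showed the same order of libraries as the histone genes, with smaller differences. After a loess correction of each library for length and GC content, the median over the members was -0.56, and by type -0.77 for H3, -0.58 for H2A, -0.53 for H4, -0.37 for H2B and -0.23 for H1. Limma called 0 members then, with a lowest adjusted p of 0.0665.

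**Figure D4:**
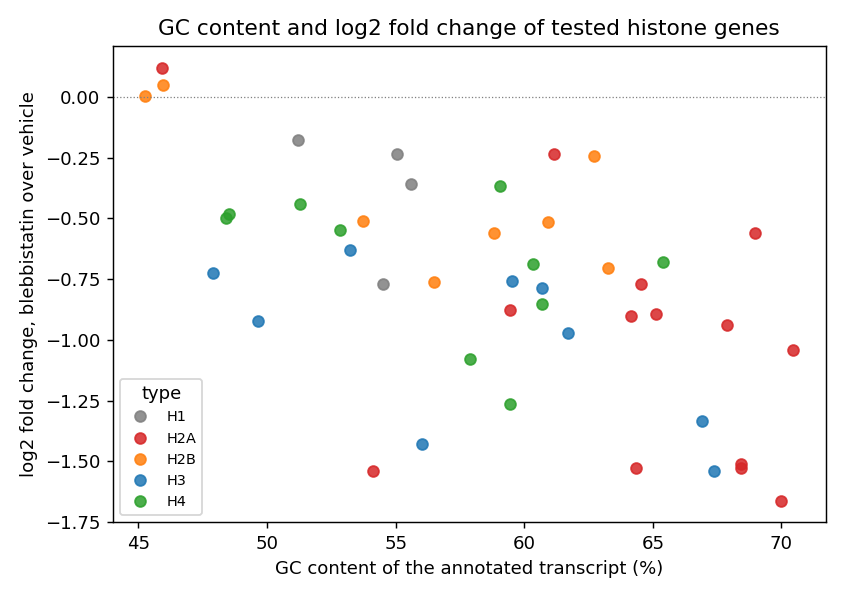
GC content of the annotated transcript in percent (horizontal axis) and log2 fold change of blebbistatin over vehicle on the log2(TPM + 1) scale (vertical axis) for 45 tested members, coloured by histone type. H2A members hold most of the points of highest GC content and H1 and H2B members most of those near 0; Pearson r is -0.60.

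The length of the listed gene past the stem-loop also differed between members. Genes were divided, after the values had been seen, by whether their listed span ran over 300 bases past the stem-loop, with any introns counted. Where no stem-loop was found, an annotated 3′ UTR of over 300 bases was used in its place. The 16 extended members, 8 of them tested, had a median log2 fold change of -0.34 (-0.73 to 0.12). The 54 short members, 39 of them tested, had a median of -0.77 (-1.66 to -0.18). The extended group held Hist3h2a, Hist1h2bc and Hist2h2be, the only tested members with a log2 fold change above 0. It also held Hist1h4i, Hist1h4j, Hist1h1c, Hist1h3e and Hist1h3f. Extended members summed to 34.0, 76.5 and 55.5 TPM with blebbistatin, against 65.6, 69.9 and 73.2 TPM with vehicle. Short members summed to 50.5, 182 and 101 TPM with blebbistatin, against 209, 188 and 280 TPM with vehicle. Short members did not overlap between the groups, whereas in extended members blebbistatin 2 was above all vehicle libraries. The 8 tested extended members had a GC content of 45.3% to 55.1%, all below the median of 59.4% over the tested members. The difference between the classes, and the part of GC content in it, was not tested.

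Many H2A and H2B genes stand head to head with a common gap between their starts. There were 13 such pairs with gaps of 235 to 305 bases. The region between Hist1h2ag and Hist1h2bj is shown because its genes rank among the highest of their types and differed in fold change. It is the RefSeq promoter window of Hist1h2bj (H2bc11), from 250 bases before to 50 after the start, GRCm38.p6, chr13:22042948-22043247, plus strand, with each CCAAT, on either strand, in capitals.
Hist1h2bj promoter: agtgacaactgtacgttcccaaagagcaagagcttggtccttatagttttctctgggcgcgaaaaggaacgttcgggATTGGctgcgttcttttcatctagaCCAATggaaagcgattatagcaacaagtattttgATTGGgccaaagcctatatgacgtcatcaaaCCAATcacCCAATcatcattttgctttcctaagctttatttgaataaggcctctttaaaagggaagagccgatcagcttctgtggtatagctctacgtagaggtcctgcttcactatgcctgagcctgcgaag
For contrast, the window of Hist1h4i (H4c9), chr13:22041313-22041612, minus strand, holds a TATAAA, in capitals, and no CCAAT.
Hist1h4i promoter: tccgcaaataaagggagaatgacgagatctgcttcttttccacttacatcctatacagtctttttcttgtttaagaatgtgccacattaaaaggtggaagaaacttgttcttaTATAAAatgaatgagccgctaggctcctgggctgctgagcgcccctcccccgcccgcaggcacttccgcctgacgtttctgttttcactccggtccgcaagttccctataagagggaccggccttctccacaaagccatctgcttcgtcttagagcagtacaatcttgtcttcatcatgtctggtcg

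RefSeq windows of 300 bases matched 61 members, and 3 motifs were searched on both strands. CCAAT, the box bound by the factor NF-Y, was in 52 of the 61 (85.2%), against 37.9% of 27025 promoter windows. All matched H1, H2A, H2B and H3 windows held it, but only 3 of 12 H4 windows. TATAAA was in 57.4% of member windows, against 14.2% of all. ATTTGCAT, the octamer bound by POU factors, was in 7 of 17 H2A and 7 of 16 H2B windows and in no other member window, against 1.75% of all. The windows of a head-to-head pair overlap, so such genes are not independent counts. A match describes these letters and does not show a bound factor.

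In 7 pairs both genes were tested, and the H2A gene had the lower log2 fold change in 7 of 7, with a median of -1.51 for H2A and -0.51 for H2B. Hist1h2ae and its partner Hist1h2bg had -1.54 and -0.51, at 54.1% and 53.7% GC. Those GC values are of annotated transcripts of 704 and 618 bases, whereas the listed genes span 460 and 477 bases. The GC content of the measured sequence may therefore differ. Hist1h2ag had -1.53 and Hist1h2bj -0.51, at 64.3% and 60.9% GC. Hist1h2ak had -1.51 and Hist1h2bn -0.24. The GC content was higher in the H2A gene in 7 of 7 pairs, with medians of 67.9% for H2A and 58.8% for H2B. Other genes hold 86.1% of the windows of Hist1h2ai, 89.7% of Hist1h2aj and 84.8% of Hist1h2ah, but 0% of Hist1h2ak and Hist2h2ac. The pairs are therefore not all independent counts. Hist1h2aj is annotated as a pseudogene. In blebbistatin 1, Hist1h2aj, Hist1h2ah and Hist1h2ak rest on an implied 0.622, 0.858 and 0.937 fragments. The differences within pairs were not tested.

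**Figure D5:**
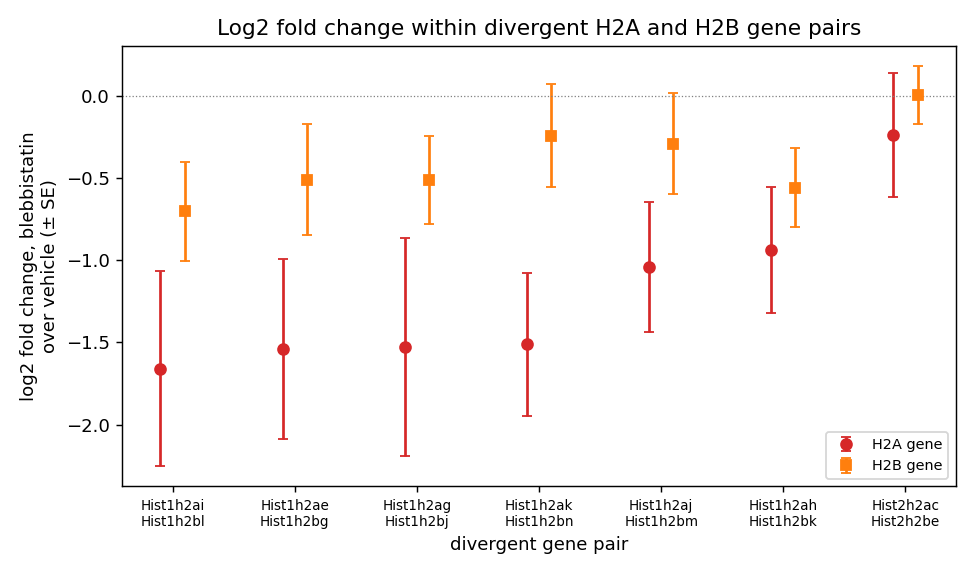
Log2 fold change of blebbistatin over vehicle on the log2(TPM + 1) scale (vertical axis, ± SE) of the H2A gene (red circle) and the H2B gene (orange square) of the 7 divergent pairs in which both were tested (horizontal axis). The H2A gene lies lower in each pair, with error bars that overlap in some, as for Hist2h2ac and Hist2h2be.

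Of the 23 members below the minimum level, 6 were listed at 0 in all libraries: Hist1h1t, Hist1h2aa, Hist2h2aa2, Hist2h2bb under 1 of its identifiers, Hist2h3b and Hist2h3c1. The highest value of any other untested member in any library was 1.87 TPM, for Hist1h4a. Just above the minimum mean of 1 TPM were Hist2h2ac (1.05), Hist1h3d (1.07) and Hist1h1b (1.09), and just below it Hist1h2be (0.984) and Hist3h2ba (0.928). Of the low genes, 3 were listed above 0 only with blebbistatin. Hist1h2br had 0.0994, 1.23 and 0.723 TPM with blebbistatin and was listed at 0 in all vehicle libraries. Hist2h2aa1 had 0.716, 0 and 1.75 TPM and Hist2h2ab 0, 0.0962 and 0 TPM with blebbistatin, and both were listed at 0 in all vehicle libraries. Other genes hold 83.0% of the windows of Hist1h2br, 100% of those of Hist2h2aa1 and 52.5% of those of Hist2h2ab, so these values depend on how shared reads were assigned. Without a minimum level, 52 of 64 members had a negative log2 fold change, with a median of -0.53, and limma called 0.

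The genes that make, process and remove histone messenger RNA were tested as a list of 27, and 0 were called (median log2 fold change -0.02). Slbp encodes the stem-loop binding protein. It had 143, 156 and 147 TPM in blebbistatin libraries, against 181, 178 and 176 TPM in vehicle libraries. All blebbistatin libraries, blebbistatin 2 included, were lower (-0.26 ± 0.05, limma adjusted p = 0.0578). Srrt, a component of the nuclear cap-binding pathway also used by histone transcripts, had 228, 206 and 202 TPM with blebbistatin, against 256, 248 and 250 TPM with vehicle (-0.25 ± 0.06, limma adjusted p = 0.0865). Npat, the coactivator that cyclin E and CDK2 switch on at histone loci, had 30.2, 25.3 and 27.4 TPM with blebbistatin, against 22.5, 24.1 and 25.5 TPM with vehicle, and overlapped (0.19 ± 0.09, limma adjusted p = 0.245).

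Replacement histones, which are made outside S phase as well and from polyadenylated messages, numbered 11, of which 9 were tested and 0 called (median -0.14). H2afz, for the variant H2A.Z, had 581, 889 and 774 TPM in blebbistatin libraries, against 1007, 1007 and 990 TPM in vehicle libraries. The groups did not overlap (-0.44 ± 0.14, limma adjusted p = 0.140). H2afx, for H2A.X, which is phosphorylated at DNA breaks and whose gene also carries a stem-loop, had 44.5, 131 and 71.4 TPM with blebbistatin, against 139, 124 and 140 TPM with vehicle. H2afj, named after its values were seen, had 26.4, 136 and 50.7 TPM with blebbistatin, against 132, 128 and 123 TPM with vehicle. Both showed the order of the clustered H2A genes, with blebbistatin 2 at vehicle level (-0.83 ± 0.34 for H2afx and -1.15 ± 0.51 for H2afj). H3f3b, for H3.3, had 418, 585 and 491 TPM with blebbistatin, against 613, 632 and 587 TPM with vehicle (-0.31 ± 0.11, limma adjusted p = 0.179). In all 4 of these genes blebbistatin 1 was the lowest library and blebbistatin 2 the highest of its group.

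Of 25 histone chaperone genes 0 were called (median -0.04). Nap1l1, a chaperone of H2A and H2B, had 636, 545 and 581 TPM with blebbistatin, against 575, 585 and 563 TPM with vehicle, and overlapped. Rbbp7, a histone-binding subunit of several complexes, had 456, 391 and 475 TPM with blebbistatin, against 493, 503 and 490 TPM with vehicle. Of 25 S phase genes 0 were called. In 23 the log2 fold change was negative (median -0.13), against 44.9% of all tested genes. Before adjustment, limma gave 11 of them a p under 0.05, all lower, against 9.99% of all tested genes lower at that level. Pcna, the sliding clamp of DNA replication, had 842, 839 and 810 TPM with blebbistatin, against 952, 944 and 937 TPM with vehicle (-0.19 ± 0.04, limma adjusted p = 0.0780). Rrm2, a subunit of ribonucleotide reductase, had 543, 518 and 523 TPM with blebbistatin, against 580, 590 and 598 TPM with vehicle. The S phase list as a whole summed to 4559, 4535 and 4537 TPM with blebbistatin, against 5004, 4994 and 5055 TPM with vehicle. The blebbistatin libraries were thus alike in this sum, unlike in the histone sums. Single genes of the list could differ between them. Cdt1 had 50.4, 93.2 and 68.5 TPM with blebbistatin, and Pold1 had 89.2, 127 and 110 TPM, in the order of the histone sums. Pcna and Rrm2 did not show that order.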

How the data were processed

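RNA was measured in 3 blebbistatin and 3 vehicle libraries, grouped by their titles. Build mm10 and the tools HISAT2 2.1.0, StringTie 1.3.4 and DESeq2 1.22.2 are named in the submitters' processing notes, with settings not given in the sources used here. The TPM values, which sum to 1000000 in each library, were made by the authors, as were the FPKM values. The deposited coverage signal gives average depth along a gene, and with FPKM it gave the implied depth at 300 aligned bases per fragment. Intervals from depth cover counting only, and single values near 1 TPM rest on few fragments.

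The tables hold no counts, so limma 3.58.1 in R 4.3.3 was run on log2(TPM + 1) with a mean-variance trend, keeping genes that averaged 1 TPM or more over the 6 libraries. Fold changes on this scale understate changes of low genes. The fit was tested on simulated data. Members and gene lists were chosen with earlier results of these data known. Named members were, in each type, the 3 of highest mean TPM and those of lowest and highest log2 fold change; lists gave their 2 genes of highest level, with Slbp, Npat, H2afx, H2afz, H3f3b and Pcna added. Other genes named were chosen after their values were seen. Of the members, 68 matched the GENCODE annotation by identifier and 2 by symbol; 99.6% of tested genes had length and GC values. Windows of 150 bases found shared sequence. Promoters are from RefSeq. Plots used matplotlib 3.10.9 (Python 3.11.15). Alternatives covered the pseudocount, minimum level, FPKM, scaling, limma options, length and GC, a replicate block and leaving out each library.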

Additional observations from a re-analysis of the deposited data

How the results depend on the processing

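Under every alternative run the median log2 fold change over the tested members stayed below 0, from -0.31 (pseudocount 5) to -1.11 (pseudocount 0.1), and 0 members were called higher. The number of members called lower was 0 except when single libraries were left out, where it ranged from 0 to 16 (16 without blebbistatin 2). The count over all genes, 244, became 49 with no minimum level, 160 with no trend, 447 with the length and GC correction and 3 to 1092 when single libraries were left out (3 without blebbistatin 3, 1092 without blebbistatin 2). With the replicate number as a block it was 0, also together with the length and GC correction. Correlations of same-numbered libraries, 0.01, -0.04 and -0.03, do not pair the samples. The H2B median, -0.51, was -0.24 with a pseudocount of 5, -0.056 with no minimum level and -0.66 to -0.012 when single libraries were left out; the cause was not tested. Hist1h2bc turned negative under quantile scaling (-0.015) and the length and GC correction (-0.023, also with the replicate block). With single libraries left out, Hist1h2bc ranged from -0.11 to 0.22, Hist3h2a from -0.043 to 0.36 and Hist1h4n from -0.78 to 0.037. Hist1h2bc changed sign without blebbistatin 2 or without vehicle 1, Hist3h2a without blebbistatin 2 and Hist1h4n without vehicle 3. Restricting to members that share under 50% of their windows, an alternative chosen after seeing the data, gave a median of -0.63. Values near 1 TPM rest on a few fragments and set the limit of what single members can show.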
